A study of Homo sapiens with 26 samples.

Results

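The regions described here were the last 15 codons of each coding sequence (CDS), from the stop codon up to the codon 14 places before it. A CDS counted where it had 200 or more codons in the deposited codon tables, which 9488 of 12325 transcripts had. For every one of these transcripts the reads at each codon were divided by the mean reads per codon of the same transcript, a quantity called density below, so that a density of 1 is the level of the average codon of that CDS. Codons were numbered back from the stop codon, which was number 0, and the codon before the stop codon was number 1. Because the authors placed each footprint 14 nt from its 5′ end, a ribosome with a stop codon in its decoding site was counted at codon 1, and the density there is called the stop codon peak.

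Translation of an mRNA ends when a stop codon (UAA, UAG or UGA) enters the A site of the ribosome. No tRNA reads it; the release factor eRF1, carried by the GTPase eRF3, binds instead and frees the finished protein, and ABCE1 then splits the ribosome into its subunits. Both steps are slow relative to the reading of most sense codons, so that in ribosome profiling, which sequences the mRNA fragments protected by ribosomes (footprints), ribosomes are commonly seen gathered at the end of the CDS. In selenoproteins UGA can also be read as selenocysteine, with the help of an RNA element in the 3′ UTR.

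The cells were Huh7, an established human hepatoma line. The first study held 18 ribo-seq libraries: PF-06446846 was given at 1.5 or 0.3 µM, or its DMSO vehicle alone, for 10 or 60 min in fresh medium, with 3 libraries for each combination. The second study held 8 libraries, 2 each of ribo-seq and mRNA-seq after 60 min of 1.5 µM PF-06446846 or vehicle. PF-06446846 is a small molecule that halts ribosomes on a few nascent proteins, and the question here was whether it also altered the end of translation. Cycloheximide was added only at harvest, and all values come from this 1 cell line. The liver markers AFP, APOA1, APOB, TF, SERPINA1, FGB, AHSG and HNF4A were all present, from a median of 225 CPM for HNF4A to 10109 CPM for AFP. The endothelial marker PECAM1 was at a median of 15.8 CPM, and 9 of 14 listed markers had a transcript in the tables.

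Libraries held 6414227 to 22224137 footprints in CDSs, and 15227654 to 22036358 mRNA-seq reads. The last 15 codons made up 2.41% of the codons of the 9488 transcripts. They held 3.78% to 5.61% of these transcripts' footprints and 3.20% to 3.39% of their mRNA-seq reads. The codon before the stop codon alone held 1.01% to 2.50% of the footprints and 0.190% to 0.196% of the mRNA-seq reads. Medians over transcripts were taken over the 3126 transcripts with a mean of at least 1 read per codon over the 22 ribo-seq libraries, while 101 of the 9488 had no footprint at all.

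The ends that carried the main results are shown here as the last 30 bases of the CDS, 5′ to 3′, on the coding strand (GENCODE v44, GRCh38). No exon boundary of the transcript used falls inside any of these stretches. The first group had among the highest stop codon peaks, with the last sense codon and the stop codon in capitals: MAD2L1 (chr4:120060118-120060147, minus strand), GLUD2 (chrX:121049332-121049361, plus strand) and ICAM1 (chr19:10285258-10285287, plus strand). AFP (chr4:73455685-73455714, plus strand), with the same 2 codons in capitals, had almost no footprints at the end of the transcript used, which has 623 codons. The GLUD2 counts before the stop codon were identical to those of GLUD1, so that peak cannot be assigned to GLUD2 alone.
MAD2L1: gtggcctacaaaattcctgtcaatGACTGA
GLUD2: tacagtgaagctggtgtgaccttcACATAG
ICAM1: aaaccgaacacacaagccacgcctCCCTGA
AFP: ttaactgatttaacactttttgtgAATTAA

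The second group had a peak inside the last 15 codons other than that of the stop codon. In the selenoproteins the in-frame TGA that encodes selenocysteine is in capitals: TXNRD1 (chr12:104348392-104348421, plus strand), TXNRD2 (chr22:19877105-19877134, minus strand) and SELENOO (chr22:50217340-50217369, plus strand). For SELENOI the stretch is that of codons 14 to 5 (chr2:26389059-26389088, plus strand), where its TGA lies. For XBP1 (chr22:28795546-28795575, minus strand) and APOB (chr2:21001730-21001759, minus strand) the codon with the most footprints is in capitals.
TXNRD1: agcatcctccaggctggctgcTGAggttaa
TXNRD2: gaccccacggtgacaggctgcTGAgggtaa
SELENOO: gcagaactgtgcgtgacaTGAtcttcgtaa
SELENOI: aactcagatTGActaggaatggaagaaaag
XBP1: cagccaagctggaagccattaATGaactaa
APOB: gctccaGGAgaacttactatcatcctctaa

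Footprints were concentrated on a single codon of the end, the codon before the stop codon, in every ribo-seq library and in no mRNA-seq library. In vehicle cells of the first study after 10 min the mean density there was 10.6 ± 2.04 (SD, n = 3), against 0.931 ± 0.0957 at the codon just upstream and 0.629 ± 0.346 on the stop codon itself. In the mRNA-seq vehicle libraries of the second study, codon 1 had a mean density of 0.966 ± 0.0347 (n = 2), close to that of the other codons of the end. Over all libraries, mean densities at codon 1 ran from 5.40 to 12.4 in ribo-seq and from 0.941 to 0.990 in mRNA-seq, so the ranges did not overlap. In the second study, the median peak was 8.40 and 8.73 in the vehicle ribo-seq libraries and 0.798 and 0 in the mRNA-seq libraries of the same groups. The exact permutation p was 0.333, which is the smallest that 2 libraries against 2 can give. The median of 0 belongs to vehicle replicate 5 of mRNA-seq, in which 52.2% of the transcripts had no read at that codon, so mRNA-seq is given below as a mean over transcripts.

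**Figure D1:**
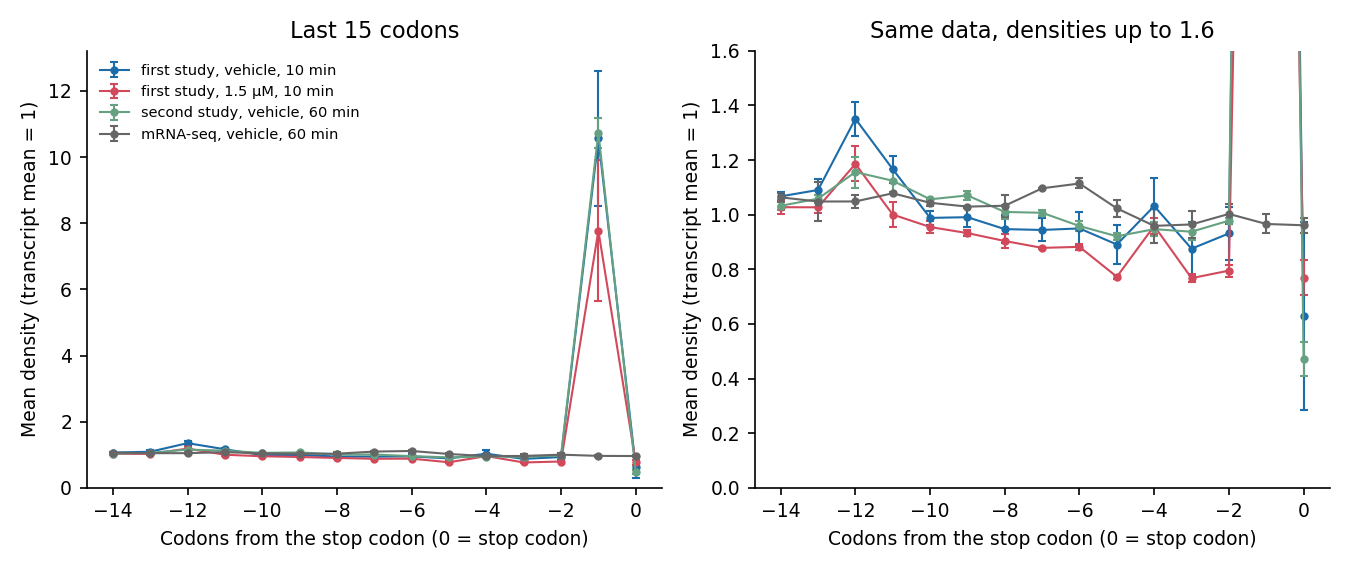
Mean density (reads at a codon over the mean per codon of the transcript) at each of the last 15 codons over 3126 transcripts, the right panel limited to densities up to 1.6; lines are group means and bars the SD over libraries. The ribo-seq lines rise at the codon before the stop codon (10.6 in vehicle after 10 min), while the mRNA-seq line stays near 1 throughout.

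The peak was a property of most ends but not of all. By the median over the 8 vehicle ribo-seq libraries, 2019 of 3126 transcripts (64.6%) had a peak of at least 5 and 331 (10.6%) one of at least 20. The quartiles were 3.44, 7.40 and 13.4, and the highest value was 66.3. In contrast, 355 transcripts were under 1 and 216 (6.91%) were at 0. Codon 1 was the highest of the 15 codons in 52.5% to 85.1% of transcripts in a ribo-seq library and in 6.14% to 7.23% in an mRNA-seq library. It was the highest in all 22 ribo-seq libraries for 812 transcripts, and in all 4 mRNA-seq libraries for 4. The order of transcripts by peak was partly shared between libraries. Across transcripts, which are not independent replicates, Spearman's rho of 2 libraries of a group was 0.515 to 0.889, between vehicle libraries of 10 and 60 min it was 0.381 to 0.825, and between vehicle libraries of both studies 0.441 to 0.635. For the ribo-seq and mRNA-seq means it was 0.115.

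The stop codon peak differed with the stop codon. In the 8 vehicle libraries the median peak was 5.34 ± 1.94 (SD, n = 8) at UAA (843 transcripts), 8.91 ± 1.96 at UGA (1352) and 9.73 ± 2.36 at UAG (608). UGA was above UAA in all 8 vehicle libraries, by 3.57 ± 0.718 (exact sign-flip permutation over libraries, two-sided, p = 0.00781, the smallest that 8 libraries allow; Benjamini-Hochberg adjusted over 3 comparisons, 0.00781). UAG was above UAA in all 8 as well, by 4.39 ± 0.892 (exact p = 0.00781, adjusted 0.00781). Both orders held in 22 of 22 ribo-seq libraries. The 8 libraries come from 2 studies that share their transcripts, so this p covers the spread between libraries and not that between genes. In mRNA-seq the same differences, over means, were 0.173 ± 0.0595 for UGA and 0.0776 ± 0.0178 for UAG (n = 4). The ratio of UGA to UAA was 1.57 ± 0.287 in vehicle after 10 min and 2.08 ± 0.227 in 1.5 µM after 10 min (n = 3 each), and its group means ran from 1.57 to 2.15.

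The base after the stop codon also went with the height of the peak. The median peak was 6.34 ± 2.21 before A (842 transcripts), 7.38 ± 2.14 before U (491), 8.22 ± 1.83 before G (919) and 10.8 ± 2.17 before C (540). As a class, purines lay below pyrimidines by a difference of −1.67 ± 0.430 in all 8 vehicle libraries and all 22 ribo-seq libraries (exact p = 0.00781, adjusted 0.00781), although G was above U. Over transcripts with at least 3 reads per codon it was −1.11. In mRNA-seq this difference was −0.0172 ± 0.0702. Taking stop codon and next base together, UAAA had the lowest median at 4.55 ± 2.07 (304 transcripts), and UGAC at 12.4 ± 2.40 (234) and UAGC at 12.4 ± 2.81 (154) the highest. Within each next base UAA was the lowest of the 3 stop codons. It was at 4.55 before A, 7.39 before C, 6.03 before G and 4.90 before U, where UGA was at 7.37, 12.4, 8.81 and 9.28.

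**Figure D2:**
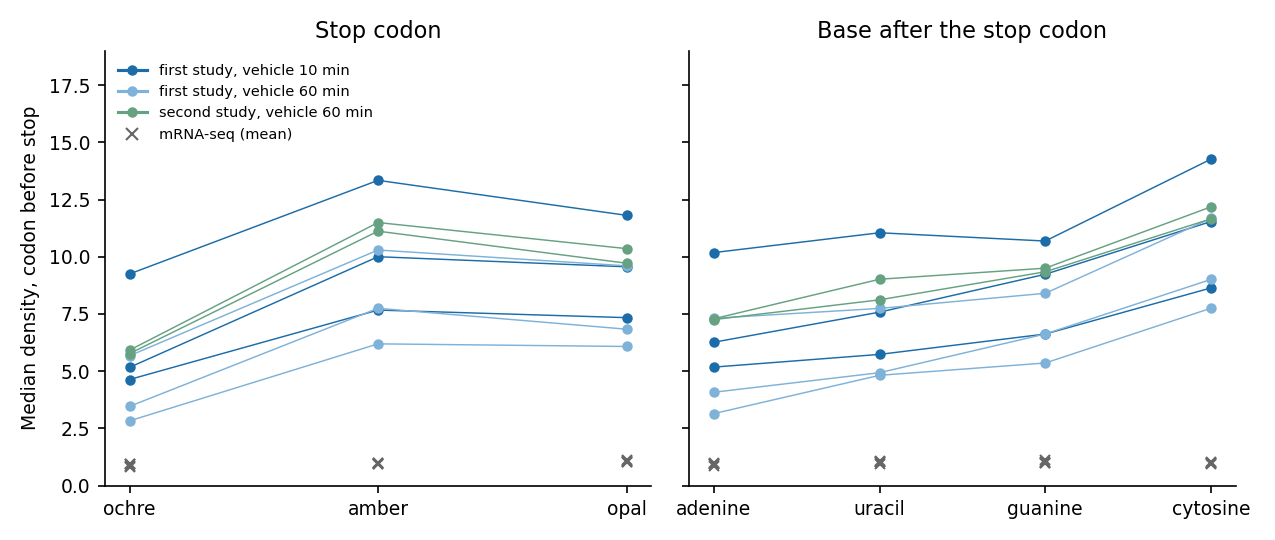
Median stop codon peak in each of the 8 vehicle ribo-seq libraries (points) by stop codon (ochre UAA, amber UAG, opal UGA) and by the base after it, with the mRNA-seq means as crosses. The ochre class is the lowest of the 3 stop codons (mean 5.34) and cytosine the highest of the 4 bases (10.8), while the crosses stay near 1.

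Grouped by the residue that ended the protein, the peaks spanned a wider range than by stop codon. Proteins ending in threonine had the highest median peak, 16.1 ± 2.83 (SD over 8 vehicle libraries, 102 transcripts). They were followed by valine at 11.9 ± 2.82 and aspartate at 11.8 ± 2.64, whose order varied between vehicle libraries. Phenylalanine was the lowest at 3.84 ± 1.74 (139), below leucine at 5.00 ± 1.76 (304) and lysine at 5.31 ± 2.12 (235). These SDs are between libraries and overlap, but within every vehicle library phenylalanine was below both. The order of residues was not tested. Among the 47 last sense codons that ended at least 20 transcripts, the 5 highest were ACC at 22.1 ± 5.64 (37 transcripts), GAC at 14.4 ± 2.38 (124), GTG at 13.8 ± 2.53 (72), ACA at 12.9 ± 2.37 (40) and TCA at 11.7 ± 4.26 (25). The 5 lowest were TTT at 3.18 ± 1.92 (56), CTT at 3.90 ± 1.78 (38), TAT at 3.97 ± 0.866 (27), TTG at 4.04 ± 1.65 (44) and AAA at 4.05 ± 1.84 (99). ACC and GAC held ranks 1 and 2, and TTT rank 47, in the vehicle libraries of both studies. The same codon classes in mRNA-seq had mean densities of 1.18 for ACC, 1.01 for GAC and 0.785 for TTT.

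**Figure D3:**
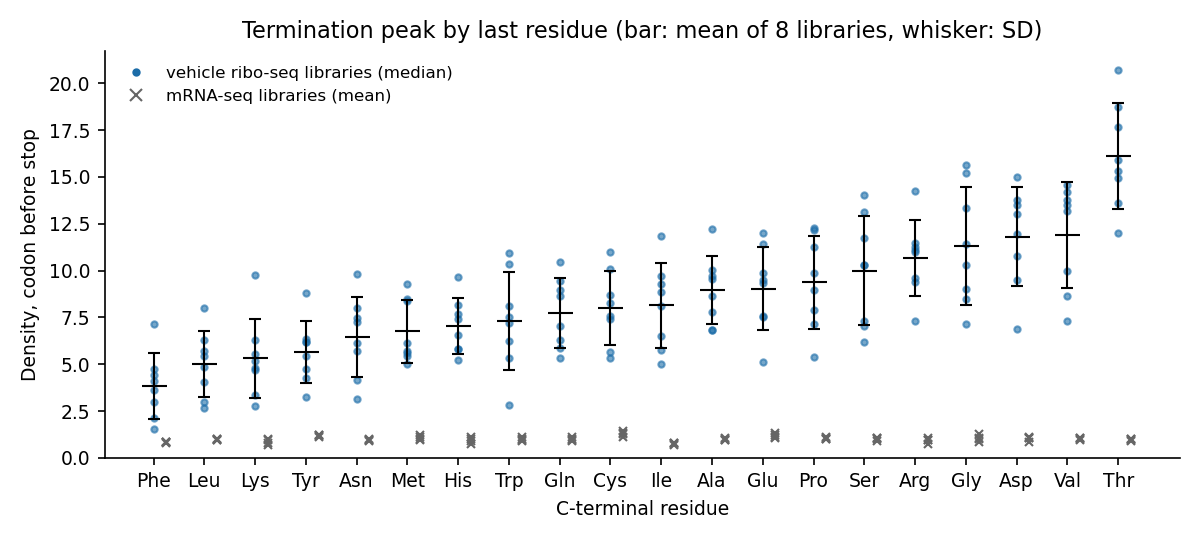
Median stop codon peak by the last residue of the protein, sorted, as the mean and SD over the 8 vehicle ribo-seq libraries. Threonine lies highest at 16.1 and phenylalanine lowest at 3.84.

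UGA and UAA kept the same order within residues. In all 18 residues with enough transcripts of each kind, UGA was above UAA in the mean of the vehicle libraries. The difference ran from 0.759 for proline, where 4 of 8 libraries showed it, to 5.86 for aspartate, where 8 of 8 did. By length, the median peak was 7.06 ± 1.92 for at least 200 and under 400 codons, 7.85 ± 2.12 for at least 400 and under 800 and 8.29 ± 2.07 for 800 or more. Within a library the longest class was above the shortest in 8 of 8 vehicle libraries, by 1.23 ± 0.411 (SD, n = 8). Transcripts with 10 or more reads per codon had a median of 6.14 ± 1.82, against 7.75 ± 2.08 for those with at least 1 and under 3. Within a library the difference was −1.62 ± 0.544, below 0 in 8 of 8.

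Among the 609 transcripts with at least 5 reads per codon and a checked sequence, 6 had the highest peaks. GLUD2 and GLUD1, the glutamate dehydrogenases of the mitochondrion, had medians over vehicle libraries of 51.4 and 38.1, but their counts at codon 1 were identical (4121 footprints in the 8 vehicle libraries), so the reads of the 2 near-identical genes cannot be told apart and make 1 observation. MAD2L1, the spindle checkpoint protein MAD2, had a peak of 47.3, 30.7 and 45.4 in the vehicle libraries after 10 min, 61.7, 66.9 and 55.7 after 60 min and 33.7 and 31.4 in the second study. Every vehicle library was therefore above 30, and the mean mRNA-seq density at that codon was 1.42. MAD2L1 ends in GAC and UGA and is shown above. ICAM1, a cell adhesion receptor for leukocytes, had a median of 35.3 and ranged from 14.8 to 61.3. CDC123, an assembly factor of initiation factor eIF2, had 32.4 (22.1 to 62.3), and SNRNP70, the U1 snRNP 70K protein of the spliceosome, 30.8 (15.7 to 39.6). In all of these the lowest vehicle library stood well above the median transcript. They were picked by their median over these same libraries, so this is no separate evidence.

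At the other extreme 24 of the 609 had a median of 0, and most of these named ends were short of reference sequence or of mRNA-seq reads as well. RPS3, RPL7 and RPS6, proteins of the cytosolic ribosome, had only 3, 4 and 8 bases after the stop codon in the reference transcript. RPS3 and RPL7 had 0 reads at codon 1 in both assays, and RPS6 had 3 footprints in the vehicle libraries. TUBA1A, an alpha-tubulin, and H1-2, a linker histone, had 0 mRNA-seq reads there too. The mRNA-seq libraries were made from poly-A RNA, and the paper describes histone transcripts, for want of poly-A tails, as underrepresented in them. The 0 of H1-2 in mRNA-seq therefore cannot show whether reads could be placed at its end. Over the 3126 transcripts, all 37 without a complete stop codon in GENCODE v44 had a median of 0, with 0 footprints and 0 mRNA-seq reads at the last 2 codons. Of 24 checked transcripts with under 15 bases after the stop codon, 21 were at 0. With at least 60 bases after it, 102 of 2724 (3.74%) were at 0 and the median peak was 7.87. Ends at 0 in the gene groups below include such transcripts.

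AFP, the alpha-fetoprotein secreted by fetal liver and hepatoma cells, was the clearest such end. With a mean of 211 footprints per codon in the vehicle libraries, it was among the most heavily translated CDSs, yet codon 1 had 2 footprints in these 8 libraries together, against 260 mRNA-seq reads. Its last 15 codons held 22 footprints and 3867 mRNA-seq reads, densities of 0.000903 and 0.785. The reference transcript has 29 bases after the stop codon. Over all 3126 transcripts, 43 had a density under 0.1 over the last 15 codons in vehicle ribo-seq, and 18 of those had an mRNA-seq density of at least 0.5 there. Of the 18, 10 had a checked sequence: AFP, TARDBP (the RNA-binding protein TDP-43; 4 footprints, 218 mRNA-seq reads), SYNGR2 (10 and 426), SKP2 (38 and 223), GOSR2 (5 and 105), PTDSS1 (0 and 285), ETV4 (11 and 470), DCK (0 and 74), FRRS1 (9 and 60) and MED16 (0 and 228). These genes were listed after their values were seen. The tables hold 1 isoform per gene, and whether another isoform was the translated form was not tested.

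Of 6 selenoprotein genes with a selenocysteine codon near the end, 4 had a peak before that codon, which is not their stop codon, resting on 72 footprints or more. An in-frame TGA within the last 12 codons was searched for in the transcripts with a checked sequence, and was found at 7 sites of 6 genes, all of them selenoproteins. The thioredoxin reductases TXNRD1, TXNRD2 and TXNRD3, which keep thioredoxin reduced, carry it at codon 2. SELENOO, a mitochondrial pseudokinase that AMPylates proteins, carries it at codon 3, and SELENOI, an ethanolamine phosphotransferase, at codon 11. SELENOP, the selenium carrier of plasma, carries it at codons 6 and 4. A ribosome with the TGA in its A site is counted 1 codon earlier, at codons 3, 4 and 12 for the first genes.

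At that codon the vehicle density was 9.69 ± 2.62 for TXNRD1, 14.7 ± 5.71 for TXNRD2, 43.4 ± 18.8 for SELENOO and 11.4 ± 3.73 for SELENOI (SD, n = 8). These rested on 366, 72, 190 and 288 footprints in the 8 libraries. The mRNA-seq density at the same codons was 0.873, 1.59, 1.76 and 0.246, on only 19, 12, 16 and 1 reads. TXNRD2 and SELENOO had 0.670 and 0.573 reads per codon in the vehicle libraries. Both fell under the coverage filter used for medians, so their densities divide by a sparse mean. The codon before the TGA was the highest of the last 15 in 22 of 22 ribo-seq libraries for SELENOI, in 21 for TXNRD2 and in 19 for SELENOO. It was not for TXNRD1, whose own UAA had a larger peak of 21.7 ± 12.8. TXNRD3 had only 11 footprints at that codon (13.4 ± 14.8), which gives no stable value. At the sites of SELENOP the densities were 2.45 ± 1.36 at codon 7 and 0.567 ± 0.404 at codon 5, above and below the transcript mean of 1.

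Reads beyond the selenocysteine codon differed between these genes. In TXNRD1 the peak at the true stop codon held 870 footprints in the vehicle libraries, more than the 366 before the TGA. In SELENOO it held 55 against 190, in TXNRD2 14 against 72 and in SELENOI 16 against 288. The density before the stop codon was thus 12.4 ± 7.18 in SELENOO, 2.62 ± 2.59 in TXNRD2 and 0.705 ± 0.797 in SELENOI. TXNRD1 also had a peak at codon 13, with 570 footprints and a density of 14.3 ± 3.95. The codon directly after it is TCT and not a TGA, and the in-frame TGA of this end lies at codon 2.

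**Figure D4:**
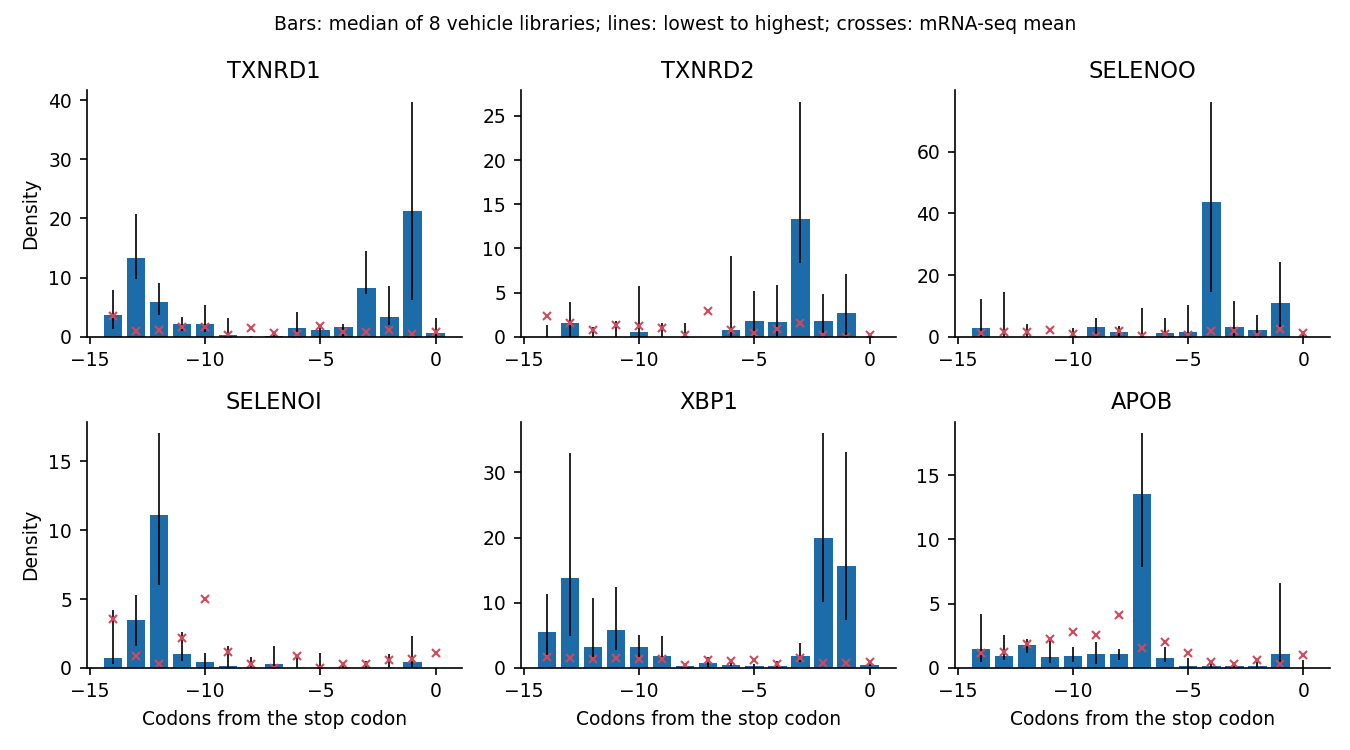
Density at the last 15 codons of TXNRD1, TXNRD2, SELENOO, SELENOI, XBP1 and APOB; bars are the median of the 8 vehicle ribo-seq libraries, lines the lowest to highest library and crosses the mRNA-seq mean. Tall bars stand at codons 3 and 13 in TXNRD1, codon 3 in TXNRD2, codon 4 in SELENOO, codon 12 in SELENOI, codons 2 and 13 in XBP1 and codon 7 in APOB. At codon 1 the bars are tall in TXNRD1, SELENOO and XBP1 but low in TXNRD2, SELENOI and APOB.

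By the naming rule, 6 other transcripts had the highest density at a single codon upstream of codon 1. XBP1, the transcription factor of the unfolded protein response, is known for an arrest peptide near the C-terminus of the protein made from its unspliced mRNA. The transcript in the tables has 262 codons. Its density in vehicle libraries was 20.0 at codon 2 (lowest 10.1, highest 36.0), 15.6 at codon 1 (7.31 to 33.2) and 13.8 at codon 13 (4.87 to 33.0), with 1959, 1402 and 1327 footprints. The mean mRNA-seq densities there were 0.774, 0.676 and 1.57. All 3 codons were above the transcript mean in every vehicle library.

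APOB, the large apolipoprotein of very low density lipoprotein, had a density of 13.5 (7.85 to 18.3) at codon 7, a GGA, with 1601 footprints, against 208 footprints and a density of 1.09 at codon 1. The mRNA-seq density at codon 7 was 1.55. C1QBP, a mitochondrial matrix protein, had 9.33 at codon 11 and STRAP, a WD40 protein of the SMN complex, 9.10 at codon 4. ACTA1, skeletal muscle actin, had 23.1 at codon 4 with a peak of 0 in both assays. Its sequence is close to that of other actins, and reads of the family cannot be assigned to it alone. ENSG00000251357 had 20.6 at codon 2. Its counts were the same as those of another transcript, so it is uncertain as well. In all, 188 of the 3126 transcripts had counts at codon 1 identical to those of another transcript in all 26 libraries.

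A second, much lower rise lay around codon 12 upstream of the stop codon, about the span of a footprint behind the ribosome at the stop codon. In vehicle cells of the first study after 10 min the mean density was 1.35 ± 0.0616 (n = 3) at codon 12, against 0.949 ± 0.0601 at codon 6. It was 1.17 ± 0.0493 at codon 11 and 1.09 ± 0.0394 at codon 13, while codon 10, at 0.988 ± 0.0268, was no higher than codon 9, at 0.991 ± 0.0358. The window of codons 10 to 12 used here therefore took in 1 codon outside the rise in this group. The ratio of codons 10 to 12 to codons 4 to 6 was 1.22 ± 0.109 in vehicle ribo-seq (above 1 in 8 of 8 libraries), 1.06 to 1.41 in all 22 ribo-seq libraries and 1.02 ± 0.0190 in mRNA-seq (n = 4). Transcripts were also divided into 4 equal groups by their peak. From the group with the lowest to that with the highest peaks, the mean density of codons 10 to 12 was 1.07, 1.12, 1.15 and 1.30 in vehicle ribo-seq and 0.963, 1.04, 1.0992 and 1.1022 in mRNA-seq. Relative to codons 4 to 6 the ratio went the other way, 1.42, 1.28, 1.13 and 1.15 in vehicle ribo-seq, and in mRNA-seq it was 1.12, 1.00, 1.00 and 0.966. Peak and densities share the transcript's mean as denominator, so these trends are given as a description only.

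Gene groups with a known role or signal at the C-terminus were compared with the median peak of 7.40 over all 3126 transcripts. These lists were drawn up with earlier results of these data known. The 6 termination and recycling factors had a median of 14.2, with GSPT1 (eRF3a) at 20.5, ABCE1 at 19.2 and ETF1 (eRF1) at 11.1, and 5 of 6 had a peak of at least 5. The 23 tail-anchored membrane proteins, which enter the membrane only after release from the ribosome, had 9.35; STX18, a syntaxin of the endoplasmic reticulum (ER), was at 40.2 (20.2 to 74.0), and 4 of 23 were at 0. The 12 proteins with a CaaX box for prenylation had 7.25 (CNP 33.9, with 2 at 0) and the 12 with a peroxisomal targeting signal 6.89. The 16 with a KDEL-type signal for return to the ER had 6.42, from 1.11 for HSP90B1 to 21.8 for TXNDC5.

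The 16 secreted plasma proteins had a median of 6.64, the 4 genes listed for stop codon readthrough 7.09, and the 19 cytosolic ribosomal proteins 4.59, with 4 at 0 (RPS3, RPL7, RPS6 and RPL8) and RPS2 at 20.0. All 9 mitochondrially encoded transcripts had a peak of 0. Since all 37 ends without a complete stop codon in GENCODE v44 were at 0 too, this is not read as a lack of ribosomes there. Among genes that the study listed as sensitive to PF-06446846, 11 could be used, with a median of 10.0. That list was chosen on libraries of the first study, which are among those used here, and is not independent of them. None of these medians was tested against the rest.

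PF-06446846 was next compared with vehicle. At 1.5 µM the median peak was lower than in vehicle in each of the 3 ribo-seq comparisons, but no comparison of library medians passed a test. After 10 min it was 3.36, 5.14 and 5.89 in 1.5 µM and 6.01, 10.8 and 8.03 in vehicle. All 3 treated libraries were below all 3 vehicle libraries, though 5.89 and 6.01 nearly met. The means were 4.79 ± 1.30 and 8.28 ± 2.40 (n = 3), a difference of −3.49 or −42.1% (exact permutation p = 0.1, the smallest for 3 against 3; adjusted over 11 comparisons 0.55). Without vehicle replicate 2 the difference was −2.23.

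After 60 min of 1.5 µM the medians were 5.31, 3.21 and 4.46, and in vehicle 7.88, 4.53 and 5.55, so that the groups overlapped. The difference was −1.66 (exact p = 0.2, adjusted 0.55). The replicate numbers appeared to pair the libraries at this time, a hint from the same reads at codon 1 and not from the labels. Each treated library was below the vehicle library of its number, in 3 of 3 pairs (replicate block, exact sign-flip p = 0.25, the smallest for 3 pairs). Without vehicle replicate 1 the difference was −0.71, and without 1.5 µM replicate 2 it was −1.0999. In the second study 1.5 µM gave 6.82 and 7.76 and vehicle 8.40 and 8.73, a difference of −1.28 or −14.9% (exact p = 0.333, the smallest for 2 against 2), and −0.81 without 1.5 µM replicate 4. At 0.3 µM the medians were 6.90, 5.77 and 7.19 after 10 min (−1.66, exact p = 0.4) and 5.55, 5.72 and 3.99 after 60 min (−0.897, exact p = 0.6, or 0.5 paired), overlapping vehicle at both times. After 10 min this became −0.40 without vehicle replicate 2, −2.79 without vehicle replicate 1 and −0.68 with means over transcripts in place of medians. After 60 min it turned to 0.05 without vehicle replicate 1, and was −0.35 without 0.3 µM replicate 3, −1.62 without vehicle replicate 2 and −1.40 with means. The vehicle libraries themselves differed between times by −2.30 (60 against 10 min, exact p = 0.2; −1.03 without vehicle replicate 2 of 10 min and −0.757 with means), and the effect of 1.5 µM at 10 min less that at 60 min was −1.83 (exact p = 0.5 over 400 permutations). Both doses were compared with the same vehicle libraries at each time, so these comparisons are not independent. The 10 min libraries held 6871492 to 9755922 footprints in 1.5 µM and 8489374 to 17234235 in vehicle, and the part of depth in the difference was not tested.

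**Figure D5:**
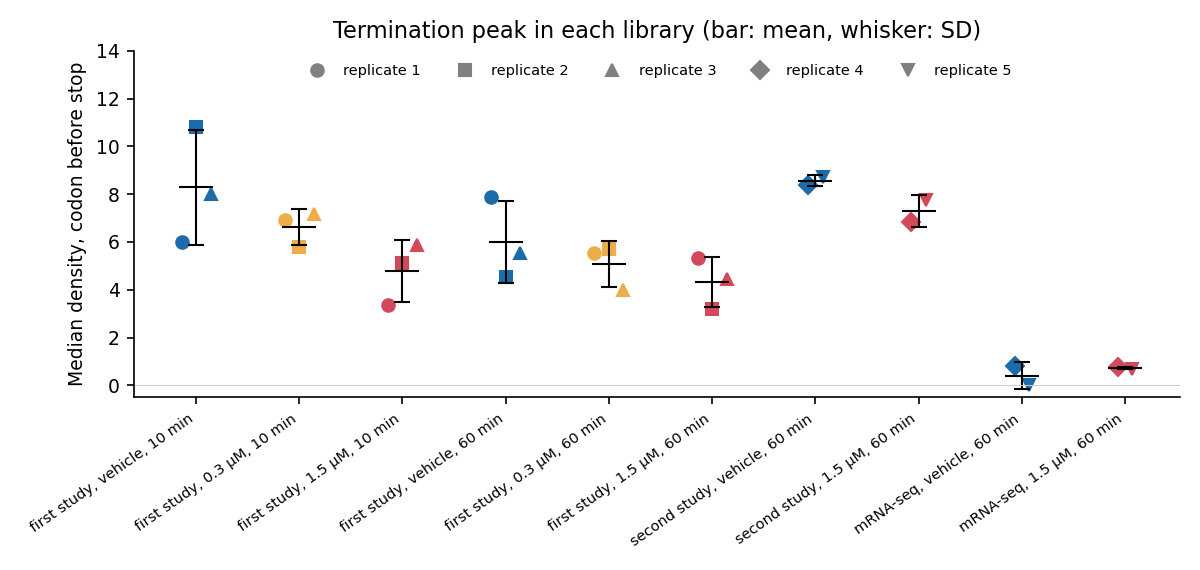
Median stop codon peak in each library (points) by group, with the mean and SD of each group. The 3 libraries of 1.5 µM after 10 min lie between 3.36 and 5.89 and those of vehicle after 10 min between 6.01 and 10.8; the other groups of the first study overlap their vehicle.

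Counted by transcript, the mean peak was lower in 1.5 µM than in vehicle for 77.5% of transcripts after 10 min and 77.3% after 60 min, and for 67.7% in the other study's libraries. For 0.3 µM this was 65.1% after 10 min and 68.8% after 60 min, and for mRNA-seq 45.3%. Transcripts of a library share its scale, so these shares describe the libraries and have no test of their own. The density at codons 10 to 12 was also lower after 10 min of 1.5 µM, with a median of 0.715 ± 0.00814 against 0.945 ± 0.0705 (−0.230, exact p = 0.1, or −0.122 with means over transcripts). Codons 2 to 14 as a whole were lower as well, with a median of 0.799 ± 0.0151 against 0.953 ± 0.0749. The ratio of codons 10 to 12 to codons 4 to 6 was 1.16 to 1.23 in 1.5 µM and 1.14 to 1.36 in vehicle. The fall was thus not particular to codons 10 to 12. After 60 min the median density at codons 10 to 12 was 0.681 ± 0.151 against 0.770 ± 0.0584 (exact p = 0.5), and in the second study 0.922 ± 0.0574 against 0.925 ± 0.0529 (exact p = 0.667). The difference after 60 min was −0.0152 without 1.5 µM replicate 2, −0.0564 without vehicle replicate 3 and −0.167 without 1.5 µM replicate 1. That of the second study took either sign as single libraries were left out, from −0.0438 without 1.5 µM replicate 5 to 0.0374 without 1.5 µM replicate 4.

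Single transcripts were tested with edgeR for a change in their share of footprints at codon 1, relative to the rest of the CDS and to the average transcript, so that a shift common to all ends is taken out. After 10 min of 1.5 µM, 8 of 2603 transcripts (0.307%) passed a false discovery rate of 0.1, 2 higher (0.0768%) and 6 lower (0.231%). DAP3, a protein of the mitochondrial ribosome, rose by 2.05 on the log2 scale, with 20, 61 and 53 footprints in 1.5 µM and 35, 28 and 17 in vehicle. The other that rose, by 2.45, was ATF6, a membrane-bound sensor of ER stress, with a mean of only 11.8 footprints. ITIH2, a plasma protease inhibitor heavy chain, fell by 3.21 (2, 4 and 3 footprints against 61, 148 and 23). AKR1A1, an aldehyde reductase, fell by 2.55 (4, 8 and 10 against 77, 99 and 33) and ANXA7, an annexin, by 2.24 (2, 5 and 5 against 46, 33 and 29). SDF4, an ER and Golgi lumen protein, fell by 4.38, the elongation factor EEF2 by 2.15 and PA2G4, a growth-regulating nucleolar protein, by 1.87. All 8 had the same edgeR adjusted p of 0.0819.

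This count depended on the fit. DESeq2 called 239 and edgeR with a single scale for codon 1 and the rest of the CDS 212 (8 higher and 204 lower, with a median log2 change of −0.49), while no transcript passed a rate of 0.05 and 589 had an unadjusted p under 0.05. Leaving out vehicle replicate 3 raised it to 374, and leaving out 1.5 µM replicate 1, 1.5 µM replicate 2 or vehicle replicate 1 lowered it to 0 (to 1 for 1.5 µM replicate 3).

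No peak passed after 60 min of 1.5 µM (0 of 2400, 0%; 48 with an unadjusted p under 0.05; DESeq2 0), after 10 min of 0.3 µM (0 of 3103; 39; DESeq2 0), after 60 min of 0.3 µM (0 of 2489; 15; DESeq2 0) or in mRNA-seq (0 of 552; 13; DESeq2 0). In the second study 3 of 3060 (0.098%) did, 1 higher (0.0327%) and 2 lower (0.0654%). EMC7, a subunit of the ER membrane complex, fell by 1.90 (10 and 13 against 50 and 47, edgeR adjusted p = 0.0977), and SLC19A3, a thiamine transporter, by 2.27 with a mean of 17 footprints (edgeR adjusted p = 0.0977). In the first study the peak of EMC7 had a log2 change of −0.02 after 60 min (mean of 74.5 footprints, edgeR adjusted p = 1) and −0.16 after 10 min (61.8 footprints, edgeR adjusted p = 0.801). EMC7 is on the study's list of sensitive genes, which the paper drew from the first study and then found again in the second. DESeq2 called 1 of the 3, none passed without 1.5 µM replicate 4 or 5, and 8 did without vehicle replicate 4.

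The stretch upstream of the peak, codons 2 to 14, was tested in the same way. After 10 min of 1.5 µM, 254 of 3257 (7.8%) passed, 100 higher (3.07%) and 154 lower (4.73%), and DESeq2 called 236 (239 for the peak), 233 of them shared. An unadjusted p under 0.05 was found for 696 stretches, against 589 of 2603 peaks. The balance depended on the scaling: with 1 scale for the stretch and the rest of the CDS 309 (9.49%) passed, 54 higher (1.66%) and 255 lower (7.83%), and the median log2 change over all tested was −0.15 in place of 0.02. The highest by the naming rule were ZNRD2, a zinc ribbon protein (1.68 on the log2 scale; 36, 35 and 21 footprints against 14, 16 and 10), ETS2, a transcription factor (1.61), and TGOLN2, a protein of the trans-Golgi network (1.48). The lowest were RSL1D1, a nucleolar protein that fell by 3.42 (2, 2 and 1 footprints against 21, 75 and 26), PSMA7, a subunit of the proteasome (−2.18), and ZFAND5, a zinc finger protein (−2.15). The edgeR adjusted p of these 6 was 0.0235 to 0.0438. The same test on codons 40 to 52, a stretch of the same length away from the end, called 263 of 3385 (7.77%), so that the share of changed stretches at the end was that of a stretch inside the CDS. This test was added after the first results were seen.

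Base composition moved with these calls. The last 45 bases had a median GC content of 55.6% in the transcripts that were higher, 42.2% in those that were lower and 48.9% in all tested with a sequence. For the peak after 10 min of 1.5 µM, the median log2 change was −0.28 for transcripts ending in UAA, 0.01 for UAG and 0.05 for UGA, and it was −0.39 where A and 0.18 where C followed the stop codon. The part of base composition in the difference was not tested. Without 1.5 µM replicate 1 or replicate 2 no upstream stretch passed, without 1.5 µM replicate 3 the count was 19, 68 remained without vehicle replicate 2, and 442 passed without vehicle replicate 3.

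After 60 min of 1.5 µM 0 of 3350 upstream stretches passed (71 with an unadjusted p under 0.05, DESeq2 0), or 3 with the replicate numbers as a block. That these numbers pair the libraries at this time is a hint from the data only. In the second study 3 of 3740 (0.0802%) did, 2 higher (0.0535%) and 1 lower (0.0267%), and 0 by DESeq2. MARS1, the methionyl-tRNA synthetase, rose by 1.46 (60 and 53 footprints against 24 and 12) and MAN2B1, a lysosomal mannosidase with a mean of 14.5 footprints, by 2.43. CDH1, E-cadherin, fell by 1.44 (22 and 20 against 60 and 35). The edgeR adjusted p was 0.0282 for each. CDH1 was also lower after 10 min in the first study, by 1.23 (edgeR adjusted p = 0.0560), and had a log2 change of −1.46 after 60 min there (edgeR adjusted p = 1.00). It is on the study's list. Leaving out 1.5 µM replicate 4 or either vehicle library left 0 calls.

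The gene groups were read against the 3.07% higher and 4.73% lower of all upstream stretches after 10 min. Of 19 cytosolic ribosomal proteins 7 were lower and 0 higher, with a median log2 change of −0.42 against 0.02 over all. They were RPL13 (−1.61), RPL10A (−0.89), RPS4X (−0.85), RPL3 (−0.84), RPS6 (−0.84), RPLP0 (−0.74) and RPL8 (−0.58). Of 15 secreted plasma proteins 5 were higher and 0 lower, with a median of 0.11: FGA, a chain of fibrinogen (1.21), ITIH2 (0.85), AMBP (0.79), VTN (0.75) and the apolipoprotein APOE (0.73). With 1 scale for both regions 8 ribosomal proteins were lower and 0 higher (median −0.58), and 2 plasma proteins were higher and 0 lower (median −0.05, of the opposite sign), against 1.66% higher, 7.83% lower and a median of −0.15 over all stretches on that scale. Of 11 tested genes of the study's list 2 were lower, CDH1 and PCBP2 (−0.87), which is no independent evidence of their direction.

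Among the remaining groups, 1 of 5 termination and recycling factors was lower (GSPT1, −1.54) and 1 of 4 readthrough genes (MDH1, −1.59). Tail-anchored proteins had 2 of 25 higher (STX16 1.98, GOSR1 1.26) and 1 lower (VAPA, −1.13). CaaX proteins had 2 of 13 higher (PEX19 2.54, DNAJA1 1.23) and 1 lower (RALA, −1.41). KDEL-type proteins had 2 of 17 lower (PDIA3 −1.097, HSP90B1 −1.07), peroxisomal proteins 1 of 12 (IDH1, −1.41) and mitochondrially encoded transcripts 2 of 8 (MT-CO2 −4.54, MT-CYB −1.28). The selenoproteins (4 tested) and XBP1 had none past the threshold. With 1 scale 4 KDEL-type proteins, 2 tail-anchored proteins, 2 CaaX proteins and 1 selenoprotein were lower, of 17, 25, 13 and 4 tested, against the 7.83% of all stretches on that scale. At 60 min none of these groups had a call in the first study, and CDH1 was their single call in the second.

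At the selenocysteine codons the compound was compared with vehicle in 21 tests, 7 sites in 3 comparisons, none of which could pass at these group sizes. The density before the TGA of SELENOI after 10 min was 5.39 ± 2.00 in 1.5 µM and 14.6 ± 3.13 in vehicle (n = 3, no overlap, exact permutation p = 0.1). For TXNRD1 after 10 min it was 7.26 ± 0.0162 against 10.9 ± 3.63 and for TXNRD2 after 60 min 6.14 ± 1.98 against 17.4 ± 9.08, both without overlap (exact p = 0.1). The TXNRD2 values rested on only 9, 2 and 5 footprints in 1.5 µM and 9, 8 and 11 in vehicle. SELENOO was at 41.9 ± 22.1 against 37.1 ± 11.6 after 10 min (exact p = 0.7) and at 73.4 ± 26.4 against 60.5 ± 13.6 after 60 min (exact p = 0.5). TXNRD2 after 10 min was at 10.9 ± 3.20 against 11.4 ± 0.937 (exact p = 0.8). After 60 min SELENOI was at 5.60 ± 3.49 against 9.91 ± 3.45 (exact p = 0.2) and TXNRD1 at 6.62 ± 4.76 against 8.18 ± 0.2505 (exact p = 0.7), and both overlapped vehicle. In the second study, which has no 10 min libraries, SELENOO was at 10.9 ± 4.85 against 27.2 ± 17.9 and TXNRD2 at 10.2 ± 2.05 against 15.8 ± 2.02, both lower without overlap (n = 2, exact p = 0.333, the smallest there). The footprints there were few, 8 and 5 against 10 and 14 for SELENOO and 8 and 7 against 11 and 9 for TXNRD2. The density of SELENOP at codon 5 was higher there without overlap, at 1.103 ± 0.296 against 0.662 ± 0.279 (exact p = 0.333). It rested on 4 and 9 footprints against 5 and 2, and these counts do overlap. SELENOI was at 9.22 ± 7.08 against 8.68 ± 1.26 and TXNRD1 at 10.3 ± 0.739 against 10.2 ± 3.17 (n = 2, exact p = 1.0 each).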

How the data were processed

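Adapters and reads of rRNA were removed by the authors, who aligned the remainder with Bowtie (1.1.2 in the submitters' processing notes) to 1 isoform per expressed gene, chosen with kallisto (0.42.5), of GRCh38, kept reads with up to 5 best sites and deposited raw read counts per codon without normalization, the site being set 14 nt from the 5′ end. The replicates are described as biological.

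Densities were computed in Python 3.11.15 (numpy 2.4.6, pandas 2.3.3, scipy 1.17.1). Sequences came from GENCODE v44 by transcript identifier: 8749 of 9488 transcripts matched, and 8276 were checked (same length, ending in a stop codon); 2807 of these are among the 3126 used for medians. Values of libraries were tested by exact permutation, two-sided, or exact sign flips over the 8 vehicle libraries. Per transcript, edgeR 4.0.16 (R 4.3.3; quasi-likelihood test) took 2 counts a library, in the window and in the other codons, with the library, the region and region by treatment as terms, TMM factors within each region, at least 10 reads in the window on average and Benjamini-Hochberg adjustment at 0.1. The fit was tested on simulated data.

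Deviations of the log2 share of reads at codon 1 from the group means were correlated between same-numbered libraries, to check whether the numbers pair them. After 60 min of the first study every pair was over 0.1 (0.541, 0.307 and 0.294 for 1.5 µM; 0.334, 0.130 and 0.281 for 0.3 µM), so the numbers pair them there, as a hint from the data and not from the labels.

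Named were the members of the gene lists; the 6 highest and 6 lowest peaks (ties at 0 ordered by coverage) and the 6 highest upstream codons among transcripts with 5 or more reads per codon and a checked sequence; the 5 highest and 5 lowest last codons; and, per edgeR comparison, the 3 highest and 3 lowest log2 changes past the threshold, where the window had a mean of at least 20 reads and every same-numbered pair moved alike. Other genes were named after their values were seen: all calls where few were made, and the ends without footprints. A gene that the naming rule gives is not reported here. The members and lists were chosen with earlier results of these data known. Alternatives were DESeq2 1.42.0 and its size factors, other filters and thresholds, the replicate number as a block, and leaving out each library.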

Additional observations from a re-analysis of the deposited data

How the results depend on the processing

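Values were recomputed under alternatives other than leaving out a library. Of these, 136 kept their direction, or for counts their size to within 1.5 times, 14 counts moved by over 1.5 times and 2 values reversed. For single libraries left out these were 109, 17 and 4. Whether a p-value changed its side of a threshold was not part of this count. For differences between library groups the replicate block cannot change the value, so those entries count as kept by construction. Among those that kept direction, 12 differences (15 with a library left out) still moved by over 1.5 times. With means over transcripts the difference in peak became −0.684 (0.3 µM, 10 min), −1.40 (0.3 µM, 60 min), −0.757 (vehicle between times) and 0.0123 (mRNA-seq; 0.116 at 3 reads per codon), and that in queue density −0.122 (1.5 µM, 10 min). At 0.5 read per codon the queue difference of 1.5 µM after 60 min was −0.0545. The stop codon differences stayed between 3.17 and 4.00 (UGA) and 4.34 and 5.15 (UAG), and the difference of purines from pyrimidines between −2.12 and −1.11. The count of changed peaks after 10 min of 1.5 µM was 239 with DESeq2, 212 with 1 scale for both regions, 3 with no filter other than 1 read in the window, 0 at a rate of 0.05 and 72 with the replicate block, where the numbers do not pair the libraries (correlations −0.0847, −0.0854 and −0.105). In the second study (0.00674) it was 1 with DESeq2, 0 with 1 scale, 1 with no filter, 1 at 0.05 and 6 with the block. For upstream stretches it was 61 at 0.05 after 10 min, 3 with the block after 60 min, and 0 with DESeq2 and 0 on codons 40 to 52 for the second study. With the block 322 upstream stretches passed after 10 min, 248 of them among the 254, and no other count of calls changed. The queue density at codons 10 to 12 of the second study reversed to 6.61e-05 with the first 40 and last 15 codons left out of the transcript mean and to 0.0154 with a minimum of 400 codons. The set with a complete stop codon and at least 60 bases after it, and codons 40 to 52, were chosen after seeing the data. The cause of these moves was not tested.

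Leaving out each library gave differences in median peak of −4.62 to −2.23 (1.5 µM, 10 min), −2.79 to −0.40 (0.3 µM, 10 min), −2.39 to −0.71 (1.5 µM, 60 min), −1.62 to 0.05 (0.3 µM, 60 min; 0.0506 without vehicle replicate 1), −1.75 to −0.81 (second study) and −0.0734 (without vehicle replicate 5) to 0.725 (mRNA-seq). The vehicle difference between times was −3.43 to −1.03. The queue density gave −0.255 to −0.190, −0.167 to −0.0152 and −0.0438 to 0.0374 (second study; also 0.0342). Changed peaks numbered 0 to 374 (1.5 µM, 10 min), 0 to 8 (second study) and 0 to 34 (mRNA-seq; 34 without vehicle replicate 4, which leaves the sparse replicate 5), and upstream stretches 0 to 442 (10 min) and 0 to 3 (second study). A group left with 1 library is assumed to vary like the other. Depth limited the peaks tested to those with 10 reads on average, and mRNA-seq to 552.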
